A study of Mus musculus with 5 samples.

Results

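The miR-29 family was followed in mouse kidney after ischemia reperfusion injury (IRI). The members are the microRNAs (miRNAs) mmu-miR-29a-3p, mmu-miR-29b-3p, and mmu-miR-29c-3p, which are the guide strands of the family, and mmu-miR-29a-5p and mmu-miR-29c-5p, which come from the opposite arm of the same hairpins. They were chosen by name among the 1247 miRNAs of the array, so the family makes up 5 of 1247. The array also carried 2 other products of these hairpins, mmu-miR-29b-1-5p and mmu-miR-29b-2-5p. Kidney RNA of male C57B/6 mice was measured in 5 groups with 1 array each, namely a sham group and 6, 12, 24, and 48 h after bilateral renal IRI with 30 min of warm ischemia. The sham mice were operated on but had no ischemia, and the ages of the mice are not given in the sources used here. The labels give 8 mice per time point, and it is not stated whether their RNA was pooled. The labels give no time for the sham group, and every comparison over sham below uses the same sham array.

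A miRNA pairs through its seed, the bases near its 5′ end, with messenger RNAs and lowers their translation or stability. The 3p members of the miR-29 family are known for repressing genes of the extracellular matrix, among them collagens, elastin, and fibrillin, and a fall of miR-29 is a known feature of fibrosis in kidney and other organs. The 5p arm of a hairpin is the passenger strand for this family and is usually far less abundant than the 3p arm.

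The mature sequences are shown because the 3p members share the seed and differ only downstream of it, which bears on both target recognition and probe specificity. Capitals mark bases 2 to 8, the seed, and the sequences are from RefSeq (GRCm38.p6).
mmu-miR-29a-3p: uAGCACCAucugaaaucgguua
mmu-miR-29b-3p: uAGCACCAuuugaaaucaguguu
mmu-miR-29c-3p: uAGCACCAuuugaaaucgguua
mmu-miR-29a-5p: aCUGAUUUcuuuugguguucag
mmu-miR-29c-5p: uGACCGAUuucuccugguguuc

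All 5 members and both other products were found in the RefSeq table. The seed AGCACCA occurred in 3 of its 1679 mature miRNA names, which are the 3 members above. Counted from 1 at the 5′ end, miR-29a-3p and miR-29c-3p differed by the single substitution C10U (base of miR-29a-3p first). miR-29b-3p differed from miR-29c-3p by A18G, G21U, and U22A (base of miR-29b-3p first) and was 1 base longer, with 23 bases. The 5p members had different seeds. miR-29a-3p lies at chr6:31062673-31062694 on the minus strand, and miR-29c-3p at chr1:195037600-195037621 on the plus strand. miR-29b-3p is made from 2 loci, at chr6:31063025-31063047 (minus strand) and chr1:195037091-195037113 (plus strand), and the array cannot separate them because the mature sequences are identical. Mir29a and Mir29b-1 are 275 bases apart on chromosome 6, and Mir29b-2 and Mir29c are 426 bases apart on chromosome 1, where both lie within the long noncoding RNA gene A330023F24Rik. The hairpin of Mir29c at chr1:195037547-195037634 is the only one with both arms detected here, and its 5p and 3p arms are in capitals.
Mir29c: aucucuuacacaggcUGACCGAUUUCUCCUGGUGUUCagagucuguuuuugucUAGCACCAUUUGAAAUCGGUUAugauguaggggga

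The platform was an Agilent 1-colour array for mouse miRNAs, on which Cy3-labelled RNA binds short probes. Each value below is an own-probe signal, that is the sum of the deposited total probe signals over the probes of a miRNA that exceeded 3 times their scanner error. Its unit is scanner intensity, and the error given is the scanner error. Bright probes had a signal close to 10 times this error, which does not hold the spread between mice or between arrays. With 1 array per group the groups could not be tested against each other, and precision is limited by this number of arrays. Slide 1 held the arrays of sham and 6 h and slide 2 the other 3, so slide cannot be told apart from time for 12, 24, and 48 h against sham. The software also multiplied signals by an effective feature size, which was a default of 0.6 for sham, 6 h, and 48 h and was computed as 0.774 for the 12 h array and 0.776 for the 24 h array. Of all miRNAs, 182 were detected on every array. In bulk tissue, fewer cells that hold a miRNA and less of it per cell cannot be told apart.

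All 3 guide strands were detected on every array, miR-29c-5p was detected on every array at a low signal, and miR-29a-5p was detected on none. In sham the signal of miR-29a-3p was 1042 ± 92.7, and after IRI it was 1428 ± 127, 1745 ± 153, 1887 ± 165, and 1319 ± 116 at 6, 12, 24, and 48 h (± scanner error, 1 array each). All 4 arrays after IRI were above sham, with the highest signal at 24 h. With the effective feature size of sham on all arrays, miR-29a-3p was 1352 ± 118 at 12 h and 1459 ± 128 at 24 h, so that the 4 arrays after IRI lay between 1319 and 1459.

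For miR-29b-3p the signal was 115 ± 10.8 in sham and 131 ± 12.3, 293 ± 27.2, 293 ± 27.3, and 160 ± 14.9 at 6, 12, 24, and 48 h. The 12 and 24 h arrays stood apart from the other 3. With 1 feature size they were 227 ± 21.0 and 227 ± 21.1, still above the 48 h array by more than 2 times the combined scanner error. For miR-29c-3p it was 365 ± 26.0 in sham and 417 ± 29.7, 616 ± 43.9, 669 ± 47.7, and 401 ± 28.6 at these times. It had the same order of arrays as miR-29a-3p, with the sham and 48 h arrays within scanner error of each other, and the values at 12 and 24 h were 478 ± 34.0 and 517 ± 36.9 with 1 feature size.

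Among neighbouring arrays in the order of signals, the steps of miR-29a-3p were all within 2 times the combined scanner error. For miR-29b-3p only the step from 48 to 24 h exceeded it. For miR-29c-3p the step from 6 to 12 h exceeded it (199 against an error of 53.0), but not with 1 feature size (60.5 against 45.2). Within an array, the coefficient of variation over the spots of a probe had a median of 3.80% for the 6 probes of the 3p members and ran from 1.63 to 18.7%. The highest values belonged to the dimmer probe of miR-29b-3p in sham and at 6 h.

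**Figure D1:**
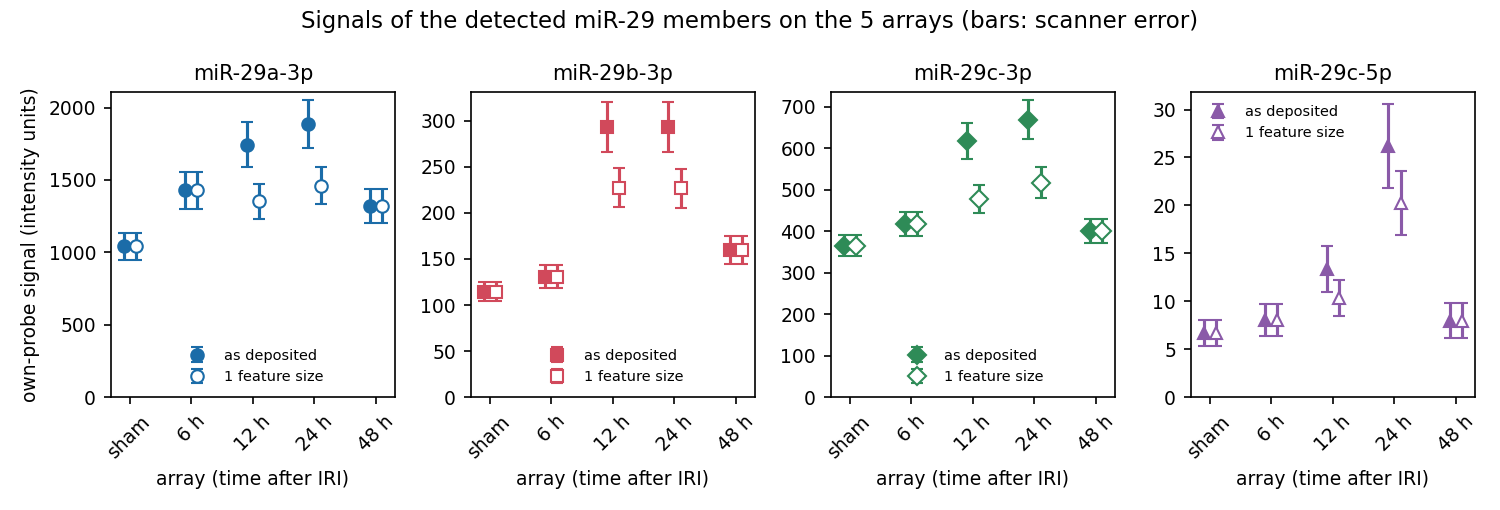
Own-probe signal in intensity units (y axis, a scale of its own in each panel, from 0) on the 5 arrays (x axis) for the 4 detected members, with scanner error bars; filled symbols are the signals as deposited and open symbols the signals with 1 effective feature size. The 3p members were highest at 12 and 24 h as deposited, and for miR-29a-3p the 4 arrays after IRI lay between 1319 and 1459 with 1 feature size.

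Relative to sham and without scaling, the 3p members were on average higher at every time, with a mean log2 ratio of 0.28, 0.95, 1.03, and 0.32 at 6, 12, 24, and 48 h (scanner error 0.10 each). With 1 feature size the mean log2 ratio was 0.58 at 12 h and 0.66 at 24 h, and 6 and 48 h were the same as before. The sign over sham depended on the scaling: the mean was below 0 at 6 and 24 h with quantile normalization (−0.18 and −0.082) or 75th percentile scaling (−0.019 and −0.13), and at 12, 24, and 48 h with scaling by spike-in controls. All of these values except the spike-in value at 48 h were within 2 scanner errors of 0. The signals of most miRNAs also moved over the same arrays. For the 182 miRNAs found on every array, the median log2 ratio was 0.16, 0.55, 1.03, and −0.23 in the same order. Relative to this median the mean of the 3p members was 0.12, 0.40, −0.0052, and 0.55 at 6, 12, 24, and 48 h. At 24 h the 3p members were therefore as much above sham as the median miRNA, and at 48 h their mean was above sham while the median miRNA was below it, before scaling by spike-ins.

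By member, miR-29a-3p had log2 ratios of 0.45, 0.74, 0.86, and 0.34 at 6, 12, 24, and 48 h (scanner error 0.18), and of 0.30, 0.20, −0.18, and 0.57 relative to the median miRNA. miR-29b-3p had 0.19, 1.35, 1.35, and 0.48 (scanner error 0.19), and 0.034, 0.81, 0.32, and 0.71 relative to the median. miR-29c-3p had 0.19, 0.76, 0.87, and 0.14 (scanner error 0.15), and 0.037, 0.21, −0.16, and 0.36 relative to the median. By own-probe signals, the member that was above the median miRNA by over 2 scanner errors at 12 h was miR-29b-3p, and at 48 h all 3 members were. In the processed table miR-29a-3p was below the median miRNA at 48 h. The log2 ratios over sham at 48 h of miR-29a-3p, miR-29b-3p, and miR-29c-3p were −0.37, 0.53, and 0.085 there. By quantiles they were 0, 0.51, and 0.078. Under these settings miR-29b-3p alone was over 2 scanner errors above sham. Of the 182 miRNAs, 78.0% were below miR-29a-3p at 48 h, 80.8% below miR-29b-3p, and 68.1% below miR-29c-3p. At 24 h these shares were 37.9%, 65.4%, and 40.1%.

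Few members passed a 2-fold difference. Without scaling, 0 of the 4 detected members were 2-fold or more above sham at 6 h, beside 20.1% of the miRNAs detected on both arrays. At 12 h it was 1 of 4 (miR-29b-3p, 2.56-fold) beside 34.6%, and miR-29c-5p was just under the limit with 1.998-fold. At 24 h it was 2 of 4 (miR-29b-3p with 2.55-fold and miR-29c-5p with 3.91-fold) beside 55.0%, and 48 h had 0 of 4 beside 7.98%. With 1 feature size miR-29b-3p was 1.98-fold above sham at both 12 and 24 h, so that 0 of 4 members passed at 12 h beside 27.4% of the miRNAs and 1 of 4 (miR-29c-5p, 3.02-fold) at 24 h beside 34.4%. On the 1 probe of miR-29c-5p detected in sham, that last value was 1.99-fold and did not pass. Relative to the median miRNA, no member was 2-fold or more higher at any of the 4 times, beside 18.2%, 23.6%, 15.8%, and 11.2% of the miRNAs. At no time was the share of members past this limit above the share among all miRNAs detected on both arrays.

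**Figure D2:**
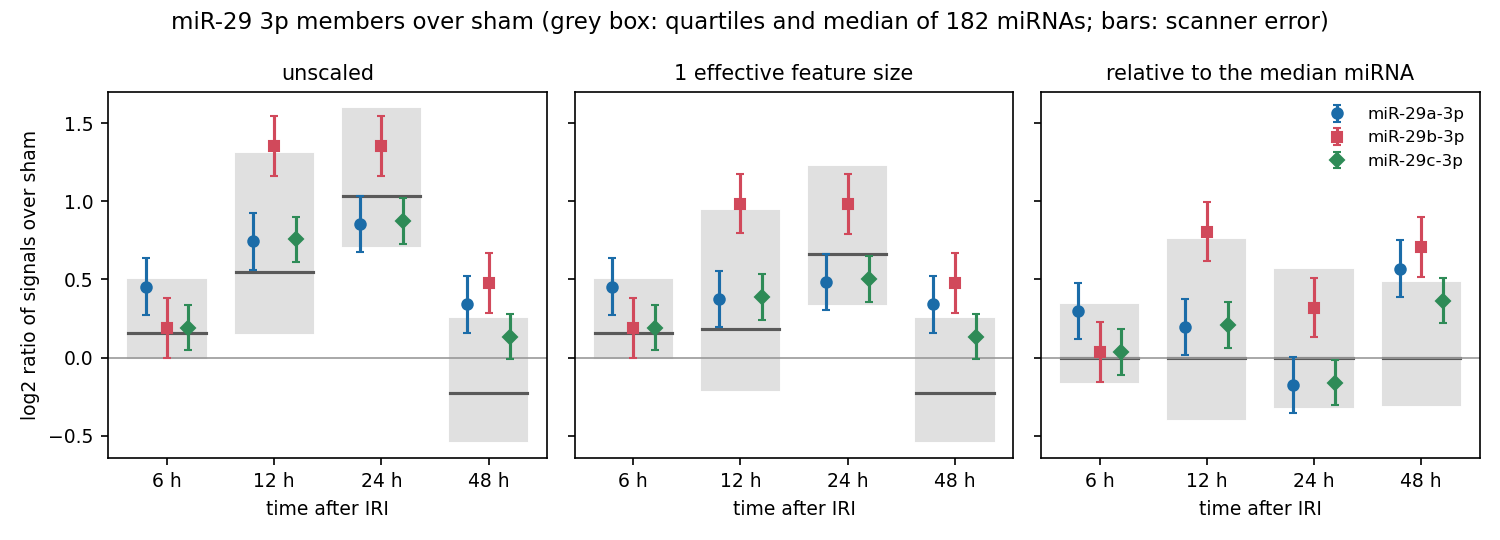
Log2 ratio of signals over sham (y axis) at 4 times after IRI (x axis) for the 3 guide strands on 3 scales, with scanner error bars; the grey box spans the quartiles and the dark line is the median of the 182 miRNAs detected on all arrays. In the last panel the members were, relative to the median, 0.034 to 0.30 above at 6 h, between −0.18 and 0.32 at 24 h, and 0.36 to 0.71 above at 48 h.

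The course between consecutive arrays did not depend on the sham array. From 12 to 24 h, both scanned together on slide 2, the mean log2 ratio of the 3p members was 0.076, while the median of the 182 miRNAs was 0.46. Single members had 0.11 (miR-29a-3p), −0.0012 (miR-29b-3p), and 0.12 (miR-29c-3p), with 28.0%, 19.2%, and 28.6% of the 182 miRNAs below them. From 24 to 48 h, on the same slide in separate scans, the members had log2 ratios of −0.52, −0.88, and −0.74 in the same order, beside a median of −1.24. None of the 3 guide strands was 2-fold or more lower, beside 66.3% of the 190 miRNAs detected on both arrays. miR-29c-5p had a log2 ratio of −1.71, but of −1.11 ± 0.43 with the probe detected on both arrays, and of −0.74 with that probe and 1 feature size, which is under 2-fold. With 1 feature size and all detected probes it was −1.34, beside 43.7% of the miRNAs 2-fold or more lower. With 1 feature size the log2 ratios of the 3 guide strands from 24 to 48 h were −0.15, −0.50, and −0.37, beside a median of −0.87. Relative to the median the guide strands were thus 0.73, 0.37, and 0.50 higher at 48 than at 24 h by own-probe signals. This gain depended on the processing. Over sham and relative to the median, the mean of the 3p members at 24 and 48 h was 0.13 and 0.35 by normexp. It was 0.15 and 0.21 by quantiles, and 0.13 and 0.11 in the processed table.

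The 4 spike-in controls, which do not come from the kidney, were higher on all arrays of slide 2, where the log2 ratio of their geometric mean over sham was 1.05, 1.09, and 1.04 at 12, 24, and 48 h, against 0.069 for the 6 h array. Divided by it, the mean log2 ratio of the 3p members was 0.21, −0.10, −0.061, and −0.72 at the 4 times (scanner error 0.10). With this scaling the mean was below sham at 48 h, while at 12 and 24 h it was within 2 scanner errors of 0. At 12 and 24 h miR-29b-3p had 0.30 and 0.26, and miR-29a-3p and miR-29c-3p were below 0. Except for miR-29c-3p at 12 h (−0.30, scanner error 0.15), these member values were within 2 scanner errors of 0. The part of labelling and slide in the result was not tested. Differences between members, and between a member and the median miRNA, are the same with and without it.

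Within the family, miR-29b-3p was further above sham than its relatives at 12 and 24 h. At 12 h its log2 ratio was 0.61 ± 0.26 above that of miR-29a-3p and 0.60 ± 0.24 above that of miR-29c-3p (± combined scanner error). At 24 h the differences were 0.50 ± 0.26 and 0.48 ± 0.24, and the first of these is under 2 errors. At 6 h they were −0.26 ± 0.26 and −0.0024 ± 0.24, and at 48 h 0.14 ± 0.26 and 0.34 ± 0.24, all within 2 errors. miR-29a-3p and miR-29c-3p differed by 0.26 ± 0.23, −0.012 ± 0.23, −0.016 ± 0.23, and 0.21 ± 0.23 at 6, 12, 24, and 48 h. Over the 4 log2 ratios, miR-29a-3p and miR-29c-3p, from different chromosomes, had a root mean square difference of 0.17, against 0.42 for miR-29b-3p with either. miR-29b-3p is made in both hairpin clusters and its loci are read together. Whether members of one cluster have similar courses therefore could not be read from these pairs.

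Both probes of each member were read separately. At 12 h the probes of miR-29b-3p had log2 ratios over sham of 1.47 and 1.34, those of miR-29a-3p 0.94 and 0.71, and those of miR-29c-3p 0.79 and 0.73. At 24 h they had 1.47 and 1.34, 1.04 and 0.83, and 0.90 and 0.85. Both probes of miR-29b-3p were above all 4 probes of its relatives at these times, with scanner errors of 0.20 to 0.33 for a single probe. The brighter probe of miR-29b-3p carried most of its signal, with 106 of 115 in sham. Position 10 lies within every probe of miR-29a-3p and miR-29c-3p, so each of these probes has 1 mismatch to the other member, while the probes of miR-29b-3p have 3 mismatches and 1 unpaired base against miR-29c-3p and 4 and 1 against miR-29a-3p. Binding of one member to the probes of another was not tested.

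**Figure D3:**
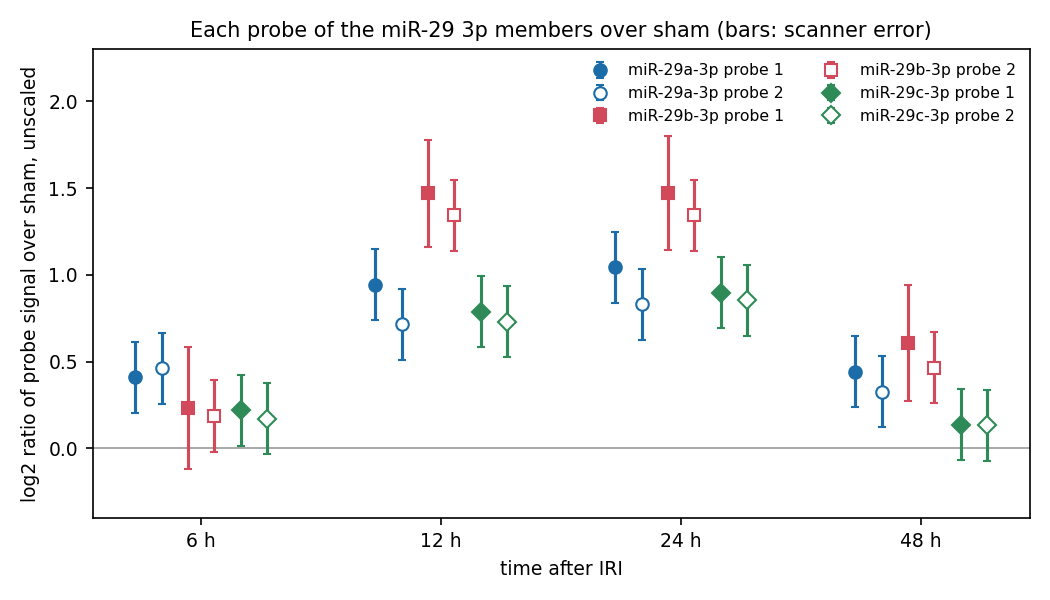
Log2 ratio of a single probe's signal over sham without scaling (y axis) at 4 times after IRI (x axis) for the 6 probes of the guide strands, with scanner error bars; filled and open symbols are the 2 probes of a member. At 12 and 24 h both probes of miR-29b-3p, at 1.34 to 1.47, were above the other 4, at 0.71 to 1.04.

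On the 5p arm, miR-29c-5p was weak. Its own probes gave 6.70 ± 1.38 in sham and 8.05 ± 1.68, 13.4 ± 2.42, 26.2 ± 4.37, and 8.00 ± 1.82 at 6, 12, 24, and 48 h. The sham, 6 h, and 48 h arrays were within scanner error, and 24 h was the highest. The log2 ratio over sham was 0.26 ± 0.42, 1.00 ± 0.40, 1.97 ± 0.38, and 0.25 ± 0.44 at 6, 12, 24, and 48 h, and 0.11, 0.45, 0.93, and 0.48 relative to the median miRNA. Its probe of 21 bases was detected on every array. The probe of 20 bases was detected at 24 h alone, where its signal of 8.95 was just above the limit of 8.72. With the 21-base probe alone, the signal at 24 h was 17.3 and the log2 ratio over sham 1.36 ± 0.40, so the larger value comes in part from summing 2 probes at 24 h and 1 in sham. With the same probe, the value at 24 h relative to the median miRNA was 0.34 (scanner error 0.38 for the summed probes), within 1 error of the median. Between 11 and 20 of its 40 spots per array were well above background, all of them spots of the 21-base probe. The 20-base probe had 0 of 20 spots well above background on every array, also at 24 h.

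The arms of miR-29c were compared through their changes only, because signals of different probes are not on one scale. The log2 ratio of the 5p arm minus that of the 3p arm was 0.072 ± 0.45, 0.24 ± 0.42, 1.09 ± 0.41, and 0.12 ± 0.47 at 6, 12, 24, and 48 h. With the probes detected on both arrays the difference at 24 h was 0.49 ± 0.43. A difference between the arms was therefore not detectable with the same probe on both sides.

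miR-29a-5p was not detected by any of its 4 probes on any array. Its highest probe signal was 1.75 times the scanner error, at 6 h, against the detection limit of 3 times, and 1 of its 40 spots was well above background on that array and 0 on the other 4. The other products of the hairpins, miR-29b-1-5p and miR-29b-2-5p, were not detected on any array either, with a highest probe signal of 2.35 times the error for miR-29b-1-5p and signals below 0 on every array for miR-29b-2-5p. No fold was computed for these, and their absence was not shown.

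The software's own summary per miRNA, the total gene signal, was not usable for miR-29c-5p. It was 372 in sham and 425, 630, 26.2, and 409 at 6, 12, 24, and 48 h. On the 4 arrays where the first probe of miR-29c-5p was undetected, it exceeded the own-probe signal by 365, 417, 616, and 401, which are the signals of miR-29c-3p on the same arrays to within 0.00086 intensity units. At 24 h, with both probes detected, there was no excess. By this column the log2 ratio of miR-29c-5p at 24 h would be −3.83, opposite to its own probes. For the 3p members the total gene signal equalled the own-probe signal.

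**Figure D4:**
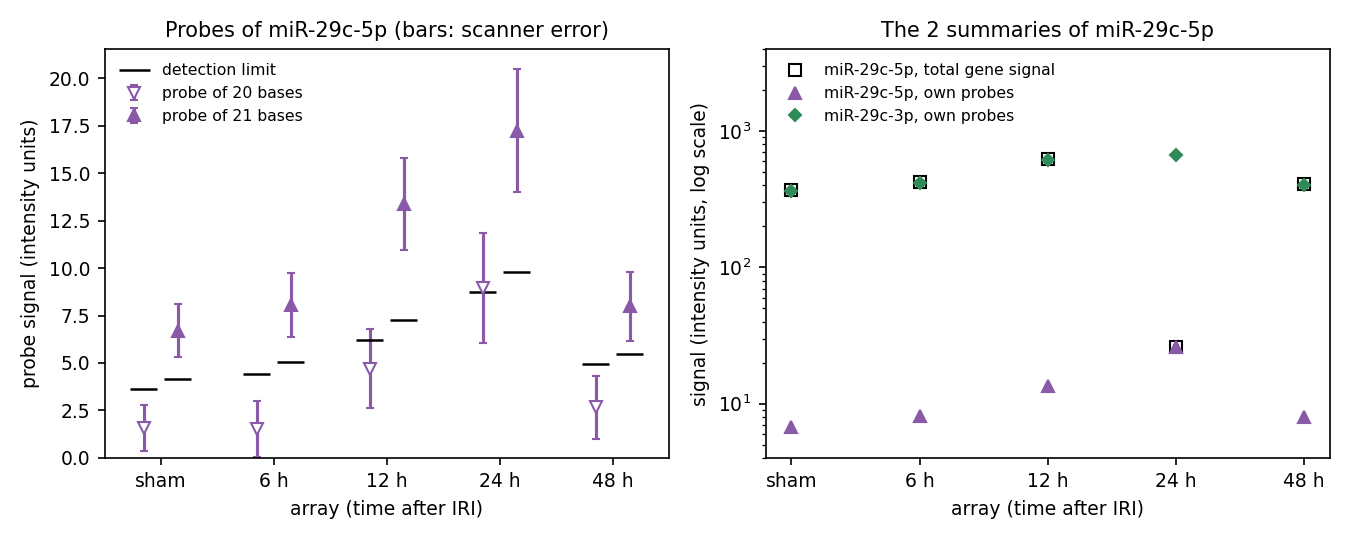
Left, signal of the 2 probes of miR-29c-5p in intensity units (y axis) on the 5 arrays (x axis), with scanner error bars and a black line at the detection limit of each probe; right, on a log axis, the total gene signal and the own-probe signal of miR-29c-5p beside the own-probe signal of miR-29c-3p. The 20-base probe passed its limit at 24 h alone (8.95 against 8.72), and on the other 4 arrays the total gene signal of miR-29c-5p lay on the signal of miR-29c-3p.

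Among 178 other miRNAs detected on all arrays, the courses most like the mean of the 3p members over the 4 log2 ratios, which share the sham array, were those of miR-22-3p, miR-92a-3p, and miR-221-3p, with root mean square differences of 0.13, 0.18, and 0.20. The most like miR-29c-5p were miR-27a-3p, miR-674-3p, and miR-350-3p, with 0.22, 0.22, and 0.23.

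Of 15 other miRNAs known for matrix and fibrosis in the kidney, 10 were detected on all arrays and 5 on none. Relative to the median miRNA, the median of the 10 was 0.041, −0.25, −0.17, and −0.11 at 6, 12, 24, and 48 h. Of the 10, 0, 1, 1, and 2 were 2-fold or more higher by this measure, beside 18.2%, 23.6%, 15.8%, and 11.2% of the miRNAs detected on both arrays. Those past the limit were miR-21a-5p, a miRNA known to promote fibrosis, with 1.71 at 12 h, 2.21 at 24 h, and 2.79 at 48 h, and miR-199a-5p, found in stromal cells, with 1.12 at 48 h. miR-21a-5p, with 831 ± 73.1 in sham and 4898 ± 429 at 48 h, was further from sham at 12, 24, and 48 h than any detected member of the miR-29 family. The epithelial miR-200 group was on this list, and miR-200b-3p had 445 ± 38.6 in sham and 355 ± 30.8 at 48 h, a log2 ratio of −0.33, while the unscaled log2 ratios of the guide strands of the miR-29 family were 0.14 to 0.48.

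Markers of cell types were read beside these results. Of the tubule miRNAs, miR-192-5p, miR-194-5p, and miR-204-5p were detected on all arrays and miR-215-5p on none, with a summed signal of 893 in sham and 922, 1154, 1250, and 640 at 6, 12, 24, and 48 h. In leukocytes 2 of 6 markers were detected on all arrays, miR-142-5p and miR-150-5p were on none, and the summed signal of the 2 was 33.5 in sham and 66.4, 93.0, 58.2, and 56.0 after IRI. Of 3 red blood cell markers 2 were on the array, of which miR-144-3p was undetected and miR-451a had 159 in sham and 500.3, 234, 538, and 105 after IRI. The endothelial miR-126-3p had 827 in sham and 881, 898, 1284, and 586, and 4 of 5 stroma and smooth muscle markers had a summed signal of 159 in sham and 173, 203, 342, and 195. These sums and signals are unscaled and hold only markers detected on all arrays. Relative to the median miRNA, their log2 ratios over sham at 24 h were −0.55 (tubule), −0.40 (miR-126-3p), −0.24 (leukocyte), 0.72 (miR-451a), and 0.071 (stroma). At 48 h the unscaled leukocyte and stromal sums were above sham and the others below it, with the same signs relative to the median miRNA. The leukocyte and stromal log2 ratios of 0.74 and 0.29 at 48 h were below the 1.04 of the spike-in controls. Not every marker followed its sum. Stromal miR-143-3p went from 41.5 in sham to 30.6 at 48 h. Stromal miR-145a-5p, outside the sum, had 4.27 in sham and 10.1, 33.3, and 38.8 at 6, 12, and 24 h, and was undetected at 48 h. Endothelial miR-126-5p was detected in sham alone, with 3.82. Leukocyte miR-146a-5p, with 9.63 in sham, was undetected at 48 h as well, while miR-142-3p had 4.74 and 5.17. Tubule miR-204-5p had 7.26 in sham, 46.7 at 24 h, and 8.29 at 48 h. At 24 h its log2 ratio relative to the median miRNA was 1.65, opposite in sign to the tubule sum. That sum was mostly miR-192-5p, with 738 of 893 in sham and −0.67 relative to the median at 24 h. The part of cell composition in the course of the miR-29 family was not tested.

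The guide strands are poor in G and C, with 40.9% in miR-29a-3p, 34.8% in miR-29b-3p, and 36.4% in miR-29c-3p, beside a median of 47.8% over the 149 of 182 miRNAs with a RefSeq sequence of that name. Across these miRNAs the log2 ratio over sham had a Spearman rho with GC content of 0.11, 0.28, 0.26, and 0.019 at 6, 12, 24, and 48 h, given as a description over miRNAs of the same arrays. The 52 miRNAs with under 45% had median log2 ratios of 0.12, 0.30, 0.87, and −0.33. The mean of the 3p members was 0.16, 0.65, 0.16, and 0.64 above these medians. The 52 miRNAs include the guide strands and are not matched to them. Of the 149 miRNAs, 16.1% had a lower GC content than miR-29a-3p, 3.36% than miR-29b-3p, and 5.37% than miR-29c-3p. The part of base composition in the course of the family was not tested.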

How the data were processed

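The authors deposited, for each of 5 arrays (1 per group), the intensity values of Agilent Feature Extraction 10.7.1.1, background-subtracted within the array and not normalized between arrays, and a table of processed log2 values whose making is not given in the sources used here, used as an alternative only. Each array held 52044 spots, 0 of them saturated. Groups came from the labels. Total probe signals, one value per probe, were summed over a miRNA's own probes above 3 times their error. Ratios were compared unscaled, with the effective feature size of sham, and against the median of the 182 miRNAs detected on all arrays. No test was possible with 1 array per group. Described were all members, the other miR-29 products, a list of matrix miRNAs, cell type markers (miR-142a and miR-126a under their older names on the array, miR-486-5p not found), and the 3 most alike miRNAs. The members and lists were chosen with earlier results of these data known. The alternatives, 12 in all, were other summaries, filters, normalizations, and references. Python 3.11.15, numpy 2.4.6, pandas 2.3.3, R 4.3.3, and limma 3.58.1 (normexp, offset 50) were used. The arithmetic of the ratios was checked on simulated data, for miRNAs with the same probes detected on both arrays. Sums over unequal probes, as for miR-29c-5p at 24 h, were not covered by it. Sequences are from RefSeq tables.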

Additional observations from a re-analysis of the deposited data

Results flagged for a closer look

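A signal appeared in a column that the comparisons did not use. The total gene signal of miR-29c-5p exceeded its own-probe signal by 365 in sham, and by more than that on 3 arrays after IRI, with 417 at 6 h, 616 at 12 h, and 401 at 48 h. At 24 h there was no excess. The excess equalled the signal of miR-29c-3p on the same array to within 0.00086 intensity units.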

How the results depend on the processing

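Values are log2 ratios over sham, or differences of them, and arm values that moved by over 2 scanner errors are given here. Of 192 alternative values for the arms, 147 moved by less, of which 11 turned in sign, and of 164 values of single members and of miR-29b-3p against its relatives, 117 moved by less, of which 5 turned in sign. All these turned values started within 2 scanner errors of 0. The mean of the 3p members, unscaled, was at 6 h −0.18 by quantile normalization, −0.019 by the 75th percentile, and −0.19 in the processed table. At 12 h it was 0.58 by mean processed signals or 1 feature size, 0.49 by normexp, 0.087 by quantiles, 0.32 by the 75th percentile, 0.026 in the processed table, and −0.10 by spike-in scaling. At 24 h it was 0.66 by mean processed signals or 1 feature size, 0.57 by normexp, −0.082 by quantiles, −0.13 by the 75th percentile, −0.096 in the processed table, and −0.061 by spike-ins. At 48 h it was 0.082 in the processed table and −0.72 by spike-ins. Relative to the median miRNA the mean was 0.62 by quantiles and 0.61 in the processed table at 12 h, and 0.21 and 0.11 at 48 h, above the median in each case. Single members were not all above it, as miR-29a-3p in the processed table at 48 h was −0.37 over sham, which is below the median. For miR-29c-5p, unscaled, the values were −1.52 at 6 h in the processed table. At 12 h they were 0.19 by normexp, −0.89 by quantiles, −1.88 in the processed table, and −0.055 by spike-ins. At 24 h they were −3.83 by the total gene signal, −0.054 by quantiles, 0.81 by the 75th percentile, −0.064 in the processed table, and 0.88 by spike-ins, and at 48 h −0.79 by spike-ins. Relative to the median it had −1.24 at 6 h, −1.30 at 12 h, and 0.16 at 24 h in the processed table, −0.36 at 12 h by quantiles, and −4.76 at 24 h by the total gene signal. The 5p minus 3p difference of miR-29c was −1.25 at 6 h in the processed table, −0.84 by quantiles and −1.77 in the processed table at 12 h, and −4.70 by the total gene signal, 0.11 by quantiles, and 0.11 in the processed table at 24 h. The total gene signal carries the signal of miR-29c-3p in sham, and the cause of the other moves was not tested.

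Single members changed direction as follows where the unscaled value exceeded 2 scanner errors. miR-29a-3p was −0.20 by quantiles and −0.15 in the processed table at 6 h, −0.37, −0.48, and by spike-ins −0.31 at 12 h, and −0.32 by quantiles, −0.30 by the 75th percentile, −0.37 in the processed table, and −0.23 by spike-ins at 24 h. miR-29c-3p was −0.052 by quantiles, −0.11 in the processed table, and −0.30 by spike-ins at 12 h, and −0.17, −0.29 by the 75th percentile, −0.17 in the processed table, and −0.22 by spike-ins at 24 h. miR-29b-3p was −0.56 by spike-ins at 48 h, and at 12 and 24 h it kept its direction, with lowest values of 0.30 and 0.19. Both of these lowest values were within 2 scanner errors of 0 (scanner error 0.19). From unscaled values within 2 scanner errors of 0, miR-29a-3p at 48 h became −0.37 in the processed table and −0.70 by spike-ins, miR-29c-3p became −0.24 by quantiles, −0.11 by the 75th percentile, and −0.26 in the processed table at 6 h and −0.91 by spike-ins at 48 h, and miR-29b-3p at 6 h became −0.12, −0.11, and −0.15 by the same 3 settings. miR-29b-3p minus the mean of its relatives stayed above 0 under 8 alternatives, from 0.41 to 0.96 at 12 h, 0.32 to 0.53 at 24 h, and 0.15 to 0.67 at 48 h, and was −0.16 to 0.097 at 6 h. Some of these could not move it, and gave the main value of 0.60 at 12 h. They were total gene signals, mean processed signals, no detection filter, and probes detected on both arrays. The other settings were the brightest probe, normexp, quantiles, and the processed table. Summing only probes detected on both arrays was chosen after seeing the data and moved no value by over 2 scanner errors. No paired analysis was possible because there was 1 array per group, and no replicate could be left out. The spread between mice was not measured, slide cannot be told apart from time, and the 5p arm lies near the detection limit.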
